A study of Mus with 8 samples.

Results

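The genes described here are those of mouse chromosome 6, in the order in which they lie along it, as measured in whole tumours of MC38 cells. They number 892 of the 31282 genes and transcripts measured in all, and 823 of them code for protein. A gene was included if the RefSeq transcript named for its probe belongs to chromosome 6 and the probe was well above background, a flag set by the scanner's software for each spot, on at least 4 of the 8 arrays. The array carried 1737 probes for 1234 chromosome 6 genes. Of these genes 342 were too dim, 280 of them on every array, and 780 of the 892 that remained were well above background on all 8 arrays. Each gene is represented by its probe with the highest mean.

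The chromosome itself was selected on the measured difference of its genes between the 2 kinds of host, so the differences between hosts given here describe that choice and test nothing. At the edge of the brightness rule, the 20 genes well above background on exactly 4 arrays had a median difference of -0.36 log2 units, and the 16 genes on 3 arrays, just left out, had -0.04. Both values lay below the median of the included genes, which is given further on.

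MC38 is a mouse colon cancer cell line. The same cells were transplanted under the skin of 4 wild-type mice (WT host) and of 4 mice with both Ext1 alleles floxed and a Cre recombinase driven by S100a4 (Ext1S100a4Cre host), all on a B6 background, per the labels. Tumours were removed after 25 to 30 days, and 0.5 µg of total RNA from each whole tumour carried the dye Cy3 and was hybridised to a 1-colour Agilent array. The labels give no age or sex of the mice. Floxed alleles and Cre are given for the host only, so by the labels the MC38 cells are the same in both groups. The S100a4 promoter is known to work in fibroblasts, and also in a part of the immune cells, of the host. No hosts with Cre but without floxed Ext1, or the reverse, were analysed here, so effects of the Cre line and of Ext1 loss cannot be told apart.

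Levels are log2 intensities minus the array's 75th percentile, and a difference is the Ext1S100a4Cre host mean minus the WT host mean on that log2 scale. The 75th percentile ran from 846.9 to 1265 intensity units, lowest for Ext1S100a4Cre host tumours 1 and 4. Ext1, which lies on chromosome 15 and encodes an enzyme that elongates heparan sulfate chains, measured -0.55, -0.28, 0.24 and -0.14 in the WT host tumours and -0.62, -0.27, -0.54 and -0.42 in the Ext1S100a4Cre host tumours. The groups overlapped, and the files do not say whether the probe lies in the deleted part, so this value does not check the labels. Intestinal epithelial markers, which the line should carry, were measured in both hosts for all 8 genes of the list, with a summed level of 69.96 to 113.2 times the 75th percentile in the WT host and 66.20 to 132.0 in the Ext1S100a4Cre host, where 7 of the 8 had a higher mean. The part of this in the results on widely used genes was not tested. Red blood cell markers, 6 of 6 with a higher mean in the Ext1S100a4Cre host, summed to 102.7 to 335.4 and 242.2 to 1149. In whole tumours, fewer cells of a type and less RNA per cell cannot be told apart.

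Chromosome 6 of the mouse carries several families that arose by duplication and still sit side by side. The Hoxa cluster encodes transcription factors of body patterning, the Gimap genes encode GTPases of lymphocytes, and the natural killer gene complex, near the far end, encodes lectin receptors through which natural killer and myeloid cells sense other cells. Between these clusters lie widely used genes, among them the kinase Braf, the glycolytic enzymes Gapdh and Tpi1, and subunits of the respiratory chain and of the proton pump that acidifies lysosomes. The Gimap and lectin genes are known mainly from immune cells, while the widely used genes are active in most cell types.

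Across the chromosome, most genes had a higher mean level where the host was Ext1S100a4Cre. The mean was higher for 593 of the 892 genes, or 66.5%, against 58.1% of all genes and transcripts tested. On the other 19 chromosomes measured this share ran from 49.9% to 64.7%, so the highest of them came close. The median difference was 0.18 log2 units, a 1.13-fold difference, against 0.05 for the 16340 genes placed on other chromosomes. Medians of the other 19 chromosomes measured ran from -0.003 to 0.090, so that of chromosome 6 lay above each of them. Single genes spread far more widely than this shift, with quartiles at -0.18 and 0.38.

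The shift set the hosts apart in every tumour. To show it, each gene's deviation from its mean over the 8 tumours was taken, and the median over chromosome 6 genes was set against the median over genes of other chromosomes. The relative level of chromosome 6 was -0.046, -0.048, -0.038 and -0.112 log2 units in WT host tumours 1 to 4. It was 0.073, 0.067, 0.075 and 0.028 in tumours 1 to 4 of the Ext1S100a4Cre host. Every tumour of the Ext1S100a4Cre host lay above every tumour of the WT host, with means of 0.061 ± 0.022 and -0.061 ± 0.034 (SD, n = 4 each). Of the other 19 chromosomes, 14 and 16 also had groups that did not overlap, in the opposite direction, and with smaller shifts in their medians of -0.048 and -0.034 against 0.129 for chromosome 6.

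**Figure D1:**
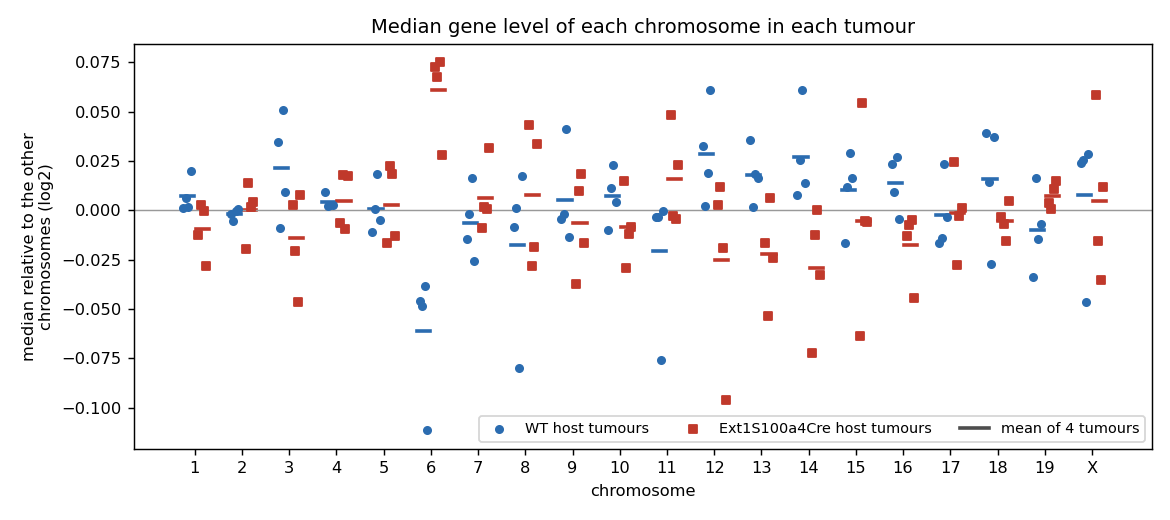
Median over the genes of each chromosome, relative to genes on the other chromosomes (vertical axis, log2 units), in each of 4 WT host (circles) and 4 Ext1S100a4Cre host tumours (squares), with bars for the mean of 4 tumours. Chromosome 6 has its 4 squares between 0.028 and 0.075 and its 4 circles between -0.112 and -0.038.

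No chromosome 6 gene passed a test across all genes on its own. The linear model of limma called 0 of the 892 genes, and 0 of all 31282 (0.0%), at a Benjamini-Hochberg adjusted p of 0.05. The smallest adjusted p on the chromosome was 0.429. At an unadjusted p under 0.05 there were 124 chromosome 6 genes higher in the Ext1S100a4Cre host, 13.9% of them against 4.39% of all genes, and 15 lower, 1.68% against 2.16%. With array medians subtracted in place of the 75th percentile this split was 71 to 22, and with the unscaled values of the series matrix 17 to 50. In the unscaled matrix 40.9% of chromosome 6 genes had a higher mean, against 19.8% of genes on other chromosomes.

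Groups that did not overlap give the same picture without a model. The 4 tumours of the Ext1S100a4Cre host all lay above the 4 of the WT host for 97 chromosome 6 genes, 10.9% of them against 3.39% of all genes. They all lay below for 10 genes, 1.12% against 1.14%, and 4.53% of all genes were without overlap in either direction. Since this contrast chose the chromosome, these shares support nothing further. With array medians subtracted the counts were 43 and 13, where 1.85% of all genes lay higher and 1.06% lower without overlap. With the unscaled series matrix the counts were 11 and 23, or 1.23% and 2.58% of chromosome 6 genes. In that matrix 0.29% of all genes lay higher and 4.55% lower without overlap. Without tumour 3 of the Ext1S100a4Cre host the counts were 167 and 44, where 8.27% of all genes lay higher and 3.78% lower.

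The 97 genes differed by small amounts. Their differences ran from 0.17 to 1.52 log2 units with a median of 0.47, and 9 of them reached a 2-fold difference. Under the 3 scaling and background alternatives of normexp background correction, quantile scaling and median scaling, 35 of the 97 were without overlap in all of them. In each of these alternatives the mean was higher in the Ext1S100a4Cre host for all 97, and for 91 of the 97 in the unscaled series matrix. Differences of at least 2-fold were rarer upwards than downwards: 28 chromosome 6 genes were at least 2-fold higher, 3.14% against 1.42% of all genes, and 57 at least 2-fold lower, 6.39% against 3.61%.

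The shift was larger for brighter probes. Over all placed genes, split by mean level into 4 groups of equal size, the dimmest group held 247 chromosome 6 genes with a median difference of -0.06, against -0.03 for genes elsewhere. The next group held 226 with 0.07 against -0.01, the next 214 with 0.26 against 0.06, and the brightest 205 with 0.29 against 0.11. In the brightest group 89.3% of chromosome 6 genes had a higher mean in the Ext1S100a4Cre host, against 75.5% of genes elsewhere. Among genes brighter than the median placed gene, the 419 on chromosome 6 had a median difference of 0.28 against 0.08. Of the 419, 72 (17.2%) lay higher and 0 lower without overlap. Over all genes, bright or dim, 3.39% lay higher and 1.14% lower without overlap. These shares are not given for equally bright genes elsewhere, so the 72 cannot be set against them.

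For those 419 brighter genes the tumours were set further apart than for the whole chromosome. Their relative level was -0.054, -0.070, -0.109 and -0.129 in WT host tumours 1 to 4 and 0.149, 0.076, 0.073 and 0.079 in tumours 1 to 4 of the Ext1S100a4Cre host. The 473 dimmer genes had a median difference of 0.003 against -0.018 elsewhere, and the hosts overlapped. The part of probe brightness in the result was not tested.

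Other probes on the same arrays, which did not represent a gene here, measured the same RNA and so are no independent support. A further 398 probes of 309 chromosome 6 genes had a median difference of 0.21, against 0.01 for 7563 such probes of genes on other chromosomes. Of the 398, 353 had the same sign as the chosen probe of their gene. Another 163 probes, named in the files only by an interval on chromosome 6, had a median of 0.09, against 0.05 for 2505 such probes on other chromosomes.

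The shift was spread along most of the chromosome but not evenly. In 15 windows of 10 Mb by gene start, holding 891 of the genes (1 lies on another scaffold of the gene table), the median difference ran from -0.11 to 0.33. In 9 windows it lay above the median of genes on other chromosomes, and in the remaining 6 below it. The windows are numbered here from the end nearest the centromere, and each holds between 16 and 143 genes.

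**Figure D2:**
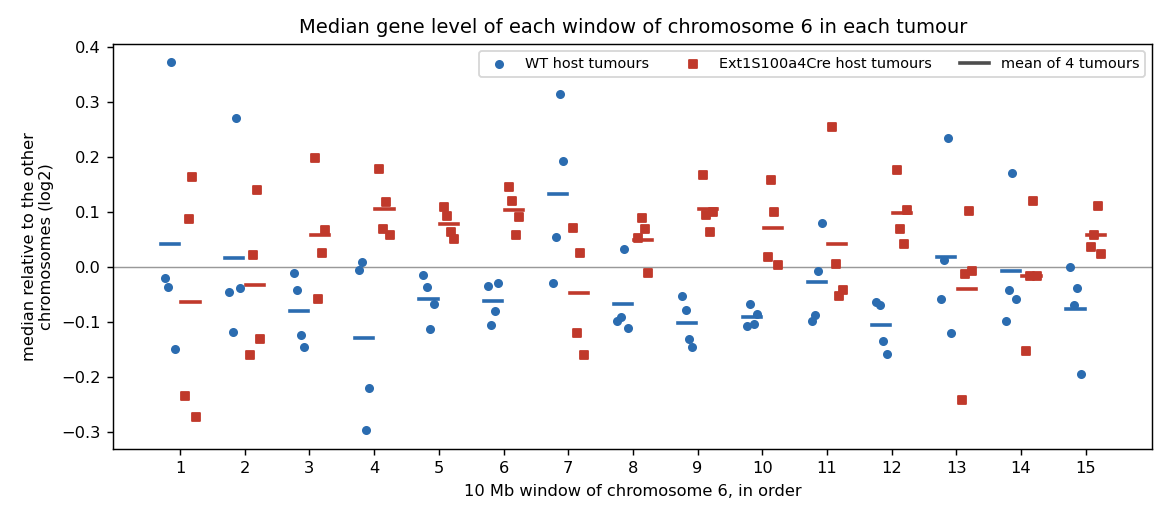
Median over the genes of each 10 Mb window of chromosome 6 (horizontal axis, in order), relative to genes on other chromosomes (vertical axis, log2 units), in each WT host (circles) and Ext1S100a4Cre host tumour (squares), with bars for the mean of 4 tumours. The 2 kinds of symbol do not overlap in windows 4, 5, 6, 9, 10, 12 and 15.

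The largest window median, 0.33, was in window 4, which runs from Nrf1 to Tmem178b and holds 72 genes, 56 of them with a higher mean in the Ext1S100a4Cre host. Relative to other chromosomes this window measured -0.005, 0.008, -0.297 and -0.220 in WT host tumours 1 to 4 and 0.177, 0.069, 0.119 and 0.058 in tumours 1 to 4 of the Ext1S100a4Cre host. The hosts did not overlap, although WT host tumours 1 and 2 lay much closer to the other host than tumours 3 and 4 did.

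Window 9, from Lrrtm4 to Vmn1r46, was more even between tumours. It holds 110 genes with a median difference of 0.25, and measured -0.053, -0.078, -0.130 and -0.146 in the WT host against 0.166, 0.095, 0.064 and 0.099 in the Ext1S100a4Cre host. Window 12, from Lmcd1 to Wnk1, held the largest share of genes without overlap. There 17 of 83 genes (20.5%) were higher without overlap, against 10.9% of chromosome 6 genes and 3.39% of all genes. Of the 83 genes 67 had a higher mean, with a median difference of 0.26.

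Windows 5 (Agk to Npy, median difference 0.17), 6 (Mpp6 to Gprin3, 0.21), 10 (Vmn1r47 to Prok2, 0.21) and 15 (Plekha5 to Bicd1, 0.19) also had hosts that did not overlap. Windows 3 and 8 had medians of 0.24 and 0.22 with hosts that overlapped. In window 8 the overlap came from WT host tumour 3, at 0.032, above tumour 4 of the Ext1S100a4Cre host at -0.012. These 9 windows kept a median above that of other chromosomes in every alternative that was run.

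The 6 other windows had medians of -0.02 (window 1), -0.11 (window 2), -0.08 (window 7), 0.02 (window 11), 0.01 (window 13) and 0.03 (window 14). Their position relative to other chromosomes changed sign in 2 to 9 of 21 alternatives each, among them, for windows 1, 2, 11, 13 and 14, the one without WT host tumour 3. Windows 13 and 14, from Ninj2 to Pik3c2g, hold the natural killer gene complex and its neighbours. Among genes brighter than the median placed gene, all 15 windows had a positive median difference, from 0.12 in window 11 to 0.36 in window 3, and hosts did not overlap in 9 of them.

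**Figure D3:**
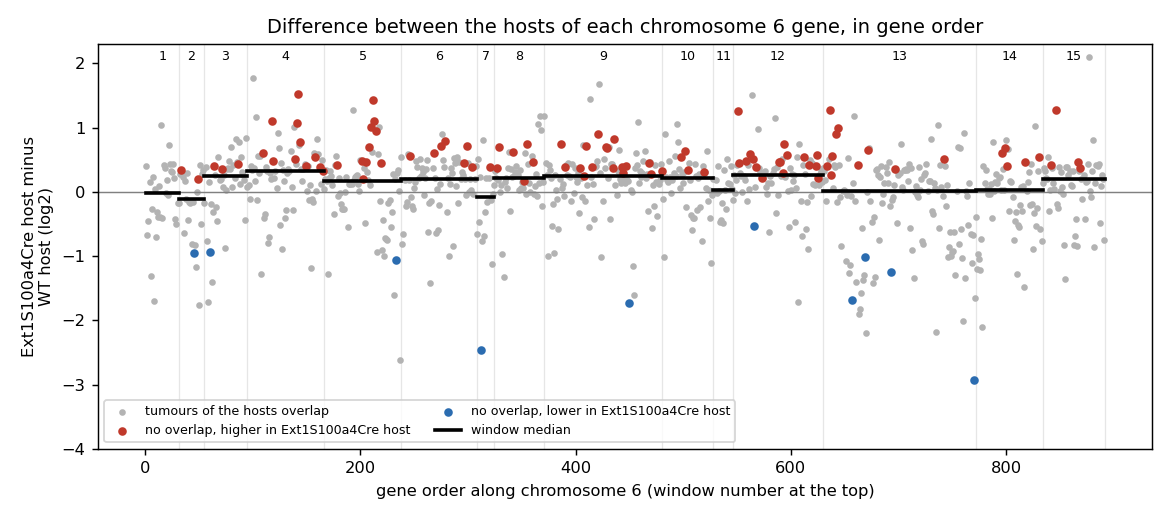
Difference between the hosts (vertical axis, log2 units) of each of 891 chromosome 6 genes in gene order (horizontal axis), with red for the 97 genes higher and blue for the 10 lower in the Ext1S100a4Cre host without overlap, grey for the rest, and black bars for window medians. Red points lie in all windows but 1 and 11, and deep negative values gather in windows 13 and 14.

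By function, 5 lists of widely used genes held only genes with higher means, and the immune and stromal lists mostly lower ones. The lists were chosen with earlier results of these data known and do not hold every chromosome 6 gene of their kind. Across the chromosome, 6 of 7 mitochondrial ribosomal protein genes and 1 of 2 ribosomal protein genes had a higher mean. Of the 20 mitochondrial genes on the list 20 had a higher mean in the Ext1S100a4Cre host, of 18 cell cycle and replication genes 18, of 19 chromatin regulators 19, of 21 genes of RNA and protein handling 21, and of 4 V-ATPase subunits 4. In the unscaled series matrix these counts were 16, 15, 11, 16 and 4. Against this, 0 of 8 myeloid Clec4 lectins, 1 of 8 Gimap genes, 4 of 29 natural killer complex lectins and 5 of 25 matrix and stromal genes had a higher mean. Of all genes tested, 58.1% had a higher mean, with a median difference of 0.05. In the unscaled series matrix 40.9% of chromosome 6 genes and 19.8% of genes on other chromosomes had a higher mean.

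**Figure D4:**
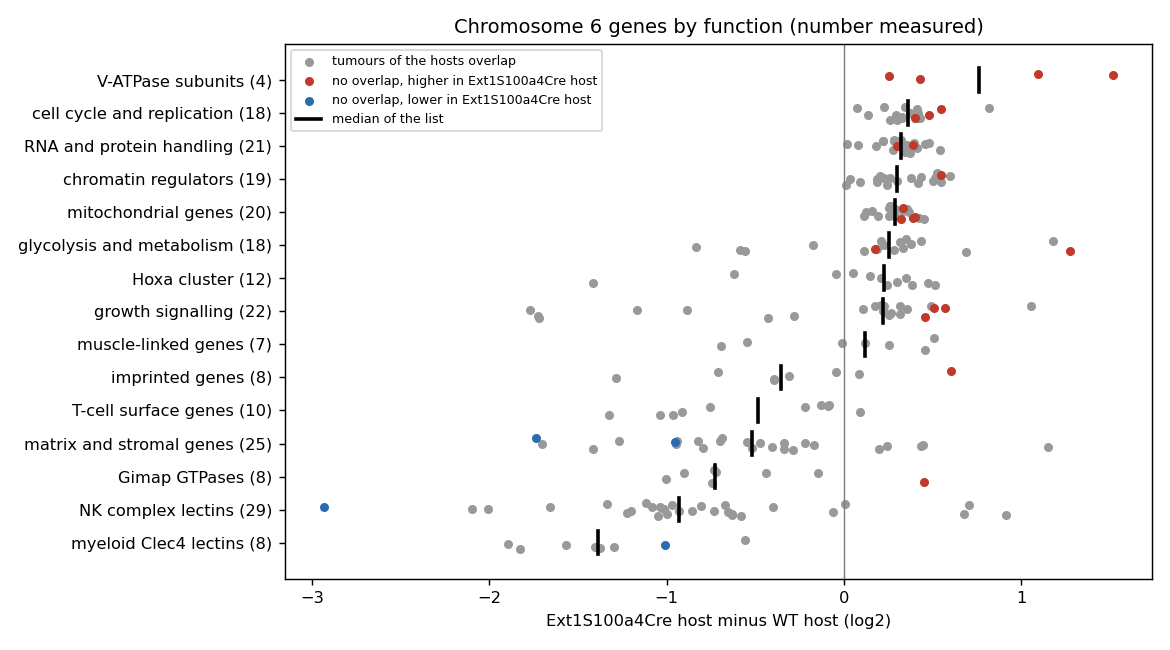
Difference between the hosts (horizontal axis, log2 units) of each measured gene in 15 functional lists of chromosome 6 genes, with red and blue for genes higher or lower in the Ext1S100a4Cre host without overlap and black bars for list medians. Medians run from -1.39 for the myeloid Clec4 lectins to 0.76 for the V-ATPase subunits.

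Subunits of the vacuolar proton pump (V-ATPase), which acidifies lysosomes and other vesicles, had the largest list median. Of the 5 on the list 4 were bright enough to measure, with a median difference of 0.76. These 4 lay higher without overlap, where 10.9% of chromosome 6 genes and 3.39% of all genes did. Under the other scalings the median lay between 0.51 and 0.79, but Atp6v1e1 alone was at 0.004 and Atp6v1f at 0.18 in the unscaled matrix. The genes lie in 4 different windows. On other chromosomes 16 V-ATPase subunit genes had a median of -0.02, 0.005 with array medians subtracted, and 0 of them were higher without overlap.

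Atp6v0e2, which encodes a small subunit of the pump's membrane sector, measured 0.44, 0.35, 0.36 and 0.85 in WT host tumours 1 to 4 and 1.70, 2.15, 1.34 and 1.19 in tumours 1 to 4 of the Ext1S100a4Cre host. The groups did not overlap, with means of 0.50 ± 0.24 and 1.60 ± 0.43 (SD, n = 4 each), a 2.14-fold difference. Atp6v0a4, a variant of the large membrane subunit best known from kidney, measured -2.41, -1.81, -3.65 and -2.88 against -1.28, -0.77, -1.01 and -1.61. It had the largest difference of the 97 genes without overlap, 1.52 (SE 0.38). Atp6v1f and Atp6v1e1, of the sector that splits ATP, differed by 0.43 (SE 0.14) and 0.25 (SE 0.10), less than the membrane subunits but with small spread: Atp6v1e1 ran from 1.99 to 2.12 in the WT host and from 2.25 to 2.36 in the other.

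Several neighbours of Atp6v0e2 in gene order were also higher, and others were not. In gene order the next gene is Lrrc61, a leucine-rich repeat gene, which measured 0.75, 0.76, -0.09 and 0.64 in the WT host and 1.67, 1.41, 1.21 and 1.57 in the Ext1S100a4Cre host. Of the 5 genes before Atp6v0e2, 3 were higher without overlap, where 3.39% of all genes and 14.1% of those in window 5 were. The 3 were Krba1 by 0.69, Sspo by 1.00 and 1 gene known only by a clone name by 1.43. On the other side Repin1, a zinc finger gene, was higher by 0.59 (SE 0.24) with overlap, while Rarres2, which encodes the chemoattractant chemerin, was lower by 0.94 (SE 0.92) on average and overlapped. Zfp862-ps differed by 0.62 (SE 0.20) and 1 gene known only by an accession name by 1.01 (SE 0.36), both with overlap. Zfp467 differed by 0.10 (SE 0.14) and Gimap8 by -0.14 (SE 0.15), also with overlap. Krba1, Repin1, Rarres2, Zfp862-ps, Zfp467 and Gimap8 are named for their place, after their values were seen.

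The mitochondrial genes on the list differed by small and even amounts. The 20 differences ran from 0.11 to 0.45 with a median of 0.29, and 4 genes lay higher without overlap, where 3.39% of all genes did. Without Ext1S100a4Cre host tumours 1 and 4 the median was 0.13, with 16 of 20 means higher, and per tumour the list overlapped narrowly between the hosts, with Ext1S100a4Cre host tumour 3 at -0.019 and WT host tumour 1 at -0.015. Nfu1, which helps assemble iron-sulfur clusters, measured 3.20, 3.17, 3.14 and 3.17 in the WT host and 3.67, 3.52, 3.40 and 3.66 in the Ext1S100a4Cre host. The spread of the WT host values was 0.03 (SD, n = 4), far below the difference of 0.39 (SE 0.11).

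Ndufa4, a subunit of the respiratory chain, measured 4.37, 4.20, 4.00 and 3.92 in the WT host and 4.59, 4.44, 4.40 and 4.40 in the Ext1S100a4Cre host, without overlap. Ndufa5, a subunit of complex I, was also without overlap and differed by 0.40 (SE 0.16). The 4 Nduf genes on chromosome 6 had a median difference of 0.31 and the 32 elsewhere 0.16, of which 31 had a higher mean. For mitochondrial ribosomal proteins the medians were 0.26 for 7 genes on chromosome 6 and 0.10 for 71 elsewhere. Genes of these families were thus also mostly higher on other chromosomes, by less. In the unscaled series matrix all 4 medians were lower, at 0.06, -0.09, 0.01 and -0.15 in the same order.

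Of 4 other families compared by name, 3 had the higher median on chromosome 6 and 1 the lower. The 17 numbered zinc finger genes (Zfp) on chromosome 6 had a median difference of 0.30, with 4 (23.5%) higher without overlap. The 316 elsewhere had 0.12, with 5.06% higher without overlap, where 3.39% of all genes were. Their median became -0.13 in the unscaled series matrix. The 4 Lsm and Snrp genes on chromosome 6, whose products belong to the splicing and RNA decay machinery, had 0.35, and the 22 elsewhere 0.19, which became -0.06 there. The 3 ubiquitin-specific proteases (Usp) on chromosome 6 had 0.29 and the 41 elsewhere 0.03. Ribosomal proteins had a median of -0.28 for the 2 on chromosome 6, 1 higher and 1 lower, and 0.21 for the 75 elsewhere, which became 0.35 and 0.05 without Ext1S100a4Cre host tumours 1 and 4. These families were picked after the values were seen, and the difference between their places on the genome was not tested.

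For 21 genes of RNA and protein handling, 2 were higher without overlap, where 3.39% of all genes were. The median difference of the list was 0.32. It was 0.07 in the unscaled matrix and 0.11 without Ext1S100a4Cre host tumours 1 and 4, and tumours 2 and 3 of that host, at -0.057 and -0.020, lay among WT host tumours 1 and 2, at -0.035 and -0.008. Rpl32, a protein of the large ribosomal subunit, measured 7.75, 7.64, 7.62 and 7.70 in the WT host and 8.22, 7.83, 7.85 and 8.01 in the Ext1S100a4Cre host, a 1.23-fold difference without overlap. The difference of Rpl32, 0.30 here, was 0.10 with quantile scaling and 0.05 in the unscaled matrix. Tnpo3, a nuclear import receptor, and Cct7, a subunit of a chaperonin, differed by 0.54 (SE 0.22) and 0.48 (SE 0.21) with overlap. Calu, a calcium-binding protein of the secretory pathway, differed by 0.41 (SE 0.22).

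Chromatin regulators had a median difference of 0.30. Where 3.39% of all genes lay higher without overlap, 1 of 19 regulators did. That was Cbx3, which encodes a heterochromatin-binding protein and measured 4.04, 4.03, 3.69 and 3.86 in the WT host against 4.83, 4.32, 4.12 and 4.55. Kdm7a, a histone demethylase, differed by 0.60 (SE 0.20) and Phc1, a Polycomb protein, by 0.53 (SE 0.30). Luc7l2, listed here and a splicing factor by its known role, differed by 0.01 (SE 0.12), and its sign changed in 6 alternatives, normexp, quantile scaling and the unscaled matrix among them. Under the unscaled matrix 11 of the 19 regulators had a higher mean, where 40.9% of chromosome 6 genes did.

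Cell cycle and replication genes had a median difference of 0.36. Ccnd2, which encodes cyclin D2, measured 3.82, 4.08, 3.87 and 3.51 in the WT host and 5.14, 4.01, 4.67 and 4.75 in the Ext1S100a4Cre host, where only tumour 2 reached into the WT range. The DNA repair genes Xpc and Ogg1 lay higher without overlap, by 0.55 (SE 0.16) and 0.48 (SE 0.20), and so did Cdkn1b, which encodes a cell cycle inhibitor, by 0.40. Mcm2, of the helicase that opens DNA for replication, differed by 0.42 (SE 0.29), and Foxm1, a transcription factor of dividing cells, by 0.08 (SE 0.28), the smallest value of the list. Without Ext1S100a4Cre host tumours 1 and 4 the list's median was 0.06, with 11 of 18 means higher.

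The list of growth signalling genes was split. Of 22 genes 15 had a higher mean, with a median of 0.22 that became -0.03 in the unscaled matrix. Wnt5b, a secreted ligand, and Creb3l2, a transcription factor, were higher without overlap, by 0.57 and 0.51. Braf, a kinase that relays growth signals, measured 1.46, 1.24, 0.86 and 1.32 in the WT host and 1.94, 1.77, 1.35 and 1.78 in the Ext1S100a4Cre host, a difference of 0.49 (SE 0.18) with overlap through WT host tumour 1.

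Of that list 7 genes had a lower mean, the receptor genes Met and Ret, the ligand genes Wnt2, Wnt16 and Tgfa, and Rassf4 and Lrig1, from -0.28 for Lrig1 to -1.77 for Wnt2. Met, the receptor of hepatocyte growth factor, measured -1.65, -1.78, 0.26 and -0.39 in the WT host and -2.21, -2.34, -1.56 and -2.13 in the other, where tumour 3 lay among the WT values. Wnt2 differed by -1.77 (SE 1.49) and its sign changed without Ext1S100a4Cre host tumours 1 and 4. Wnt7a, another ligand, went the other way by 1.06 (SE 0.42) with overlap.

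Of 18 genes of glycolysis and metabolism 14 had a higher mean, with a median of 0.26. In the unscaled matrix the median was 0.006, with 9 of 18 means higher, where 40.9% of chromosome 6 genes had a higher mean. Without Ext1S100a4Cre host tumours 1 and 4 the median was 0.08. Ldhb, a subunit of lactate dehydrogenase, measured 4.10, 3.95, 1.47 and 2.77 in the WT host and 4.56, 4.22, 4.20 and 4.42 in the Ext1S100a4Cre host. The groups did not overlap, with WT host tumours 1 and 2 just below the lowest tumour of the other host and tumours 3 and 4 far below it. Slc2a3, a glucose transporter, differed by 1.18 (SE 0.62) with overlap. Gapdh, often used as a reference gene, differed by 0.35 (SE 0.28) and changed sign without Ext1S100a4Cre host tumours 1 and 4.

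Several genes outside these lists differed by more than their spread. Slc6a13, a transporter of the neurotransmitter GABA, measured 0.56, 0.49, 0.90 and 0.37 in the WT host and 1.76, 1.48, 1.50 and 1.53 in the Ext1S100a4Cre host, a 1.99-fold difference. Tuba8, an alpha-tubulin, measured -3.88, -3.74, -3.36 and -3.69 against -2.71, -2.89, -2.74 and -2.71. Both lie in window 13, a few genes apart, and in both the difference exceeded the SD within either host, at most 0.22. Slc25a18, a mitochondrial carrier for glutamate, and Srgap3 were each higher without overlap, by 1.27 (SE 0.45) and 1.26 (SE 0.49), with WT host tumours 3 and 4 lowest.

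**Figure D5:**
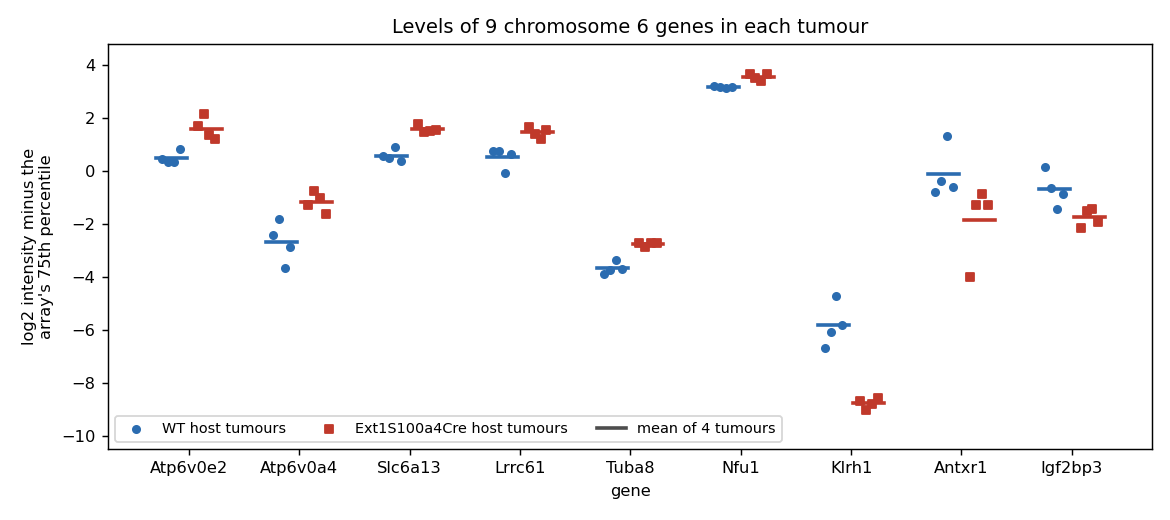
Level (vertical axis, log2 intensity minus the array's 75th percentile) of 9 chromosome 6 genes in each of 4 WT host tumours (circles) and 4 Ext1S100a4Cre host tumours (squares), with bars for the mean of 4 tumours. The 6 genes from Atp6v0e2 to Nfu1 have all squares above all circles, and Klrh1, Antxr1 and Igf2bp3 have all squares below, for Klrh1 at values not well above background. Levels of different genes are not comparable, since each has its own probe.

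The lectins of the natural killer gene complex were lower on average. Of 40 genes listed 29 were bright enough to measure, 25 of them with a lower mean in the Ext1S100a4Cre host, and the median difference was -0.93. The scaling alternatives kept this sign, from -0.20 with normexp to -1.18 unscaled, but without Ext1S100a4Cre host tumours 1 and 4 the median was 0.16 and 16 of 29 means were higher. Per tumour, the list's relative level was -0.31, 0.77, 1.97 and -0.36 in the WT host and -2.51, -0.07, 1.02 and -0.13 in the Ext1S100a4Cre host. The extremes were therefore WT host tumour 3 and Ext1S100a4Cre host tumour 1, and the other tumours overlapped.

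Klrh1, a lectin receptor of natural killer cells, was the only gene of that list without overlap. It measured -6.71, -6.10, -4.73 and -5.82 in the WT host, well above background on 4 of 4 arrays, and -8.68, -9.03, -8.79 and -8.59 in the Ext1S100a4Cre host, where no array had it well above background. Its level was at least 1.66-fold lower there, with the dimmest probe well above background on an array as the bound, and the measured means were -5.84 and -8.77. The gene was included through the WT host arrays alone, and with normexp background correction the difference of Klrh1 was -0.21 in place of -2.93. Its neighbours in gene order, Klrk1 and Klra17, differed by -0.67 (SE 0.93) and -1.66 (SE 0.82) with overlap. The value of Klra17 was -0.30 with normexp. Klra2, of the same receptor family, differed by -2.10 (SE 0.88) and ran from -1.22 to 1.34 in the WT host and from -4.30 to -0.41 in the other. Probes for such closely related genes can share signal, which the files do not resolve.

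A few lectins of the complex went the other way. Clec2f measured 0.95, 0.83, 1.78 and 1.03 in the WT host and 1.71, 2.12, 1.85 and 1.73 in the Ext1S100a4Cre host, overlapping only through WT host tumour 3, a difference of 0.70 (SE 0.22). Clec2e and Clec1b were higher by 0.68 and 0.92 with overlap.

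The myeloid Clec4 lectins, receptors by which macrophages and dendritic cells recognise microbes and dead cells, were lower in all 8 measured members, among them C3ar1, a complement receptor listed with them. The median was -1.39, between -1.24 and -1.64 under the other scalings and -0.91 without Ext1S100a4Cre host tumours 1 and 4. Clec4n, which encodes Dectin-2, measured 1.49, 2.14, 2.92 and 0.82 in the WT host and -0.81, 0.48, 1.22 and 0.98 in the other, with overlap. Clec4e, which encodes Mincle, measured -2.76, -2.22, -0.78 and -2.78 against -2.81, -3.75, -3.15 and -2.88, and the groups were apart by a small margin.

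Markers of macrophages and of T, natural killer and B cells mostly had lower means too. All 8 macrophage markers had a lower mean in the Ext1S100a4Cre host. Their summed level ran from 21.4 to 112.4 times the array's 75th percentile in the WT host, highest in tumour 3, and from 4.56 to 35.2 in the other, lowest in tumour 1. Of 8 markers of T and natural killer cells 7 were lower, with summed levels of 3.66 to 24.5 and 1.66 to 10.2, and the natural killer marker Ncr1 was well above background on 2 of 4 arrays in each host. Of 6 B-cell markers 4 were lower on average and 2 higher, and Ms4a1 was well above background on 4 arrays of the WT host and on 0 of the other, with summed levels of 0.60 to 1.66 and 0.29 to 0.45. Their part in the lectin results was not tested.

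The Gimap list and the list of T-cell surface genes had the same highest and lowest tumours, WT host tumour 3 and Ext1S100a4Cre host tumour 1. The T-cell list is not wholly separate: Cd69 is also on the natural killer complex list, and Cd69, Cd27 and Tnfrsf1a lie in window 13. Of 8 Gimap genes 7 had a lower mean, with a median of -0.72, and per tumour the list ran from -0.20 to 1.52 in the WT host and from -2.11 to 0.50 in the other. Without Ext1S100a4Cre host tumours 1 and 4 the median was -0.01, and without tumour 1 alone -0.10. Gimap9 departed from the family: it measured 0.26, 0.34, 0.45 and 0.25 in the WT host and 0.53, 0.98, 0.70 and 0.89 in the Ext1S100a4Cre host, higher without overlap. Of 10 genes on the list of T-cell surface genes 9 had a lower mean, and 0 were without overlap. Not all genes on that list are particular to T cells or to the cell surface, Tnfrsf1a among them. The 9 ran from -0.08 for Tnfrsf1a to -1.33 (SE 0.88) for Cd8a, the co-receptor of cytotoxic T cells. Tnfrsf1a, a receptor of tumour necrosis factor, changed sign without WT host tumour 3. Cd4, the co-receptor of helper T cells, differed by -0.13 (SE 0.14).

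Matrix and stromal genes were lower for 20 of 25, with a median of -0.52 that became 0.05 without Ext1S100a4Cre host tumours 1 and 4. Col1a2, a chain of type I collagen, measured 5.50, 6.12, 7.62 and 5.86 in the WT host and 2.35, 5.88, 5.37 and 4.69 in the other, where tumour 2 lay within the WT range. Antxr1, a receptor for matrix proteins, measured -0.79, -0.36, 1.33 and -0.62 against -3.99, -1.28, -0.85 and -1.27, lower without overlap. Cav2, a caveolar protein, was also lower without overlap by 0.95 (SE 0.44), with tumour 1 of the Ext1S100a4Cre host far below the rest. All 8 fibroblast markers had a lower mean, with summed levels of 67.3 to 286.4 in the WT host and 10.71 to 128.2 in the other, again with the extremes in WT host tumour 3 and Ext1S100a4Cre host tumour 1. All 5 endothelial markers were lower too, at 3.98 to 5.56 and 1.64 to 5.24. Their part in the result was not tested.

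Muscle-linked genes of chromosome 6 gave no common direction. Of 12 listed, 7 were measured, 4 with a higher and 3 with a lower mean, and the median of 0.12 became -0.13 in the unscaled matrix. Skeletal muscle markers elsewhere on the genome, 7 measured of 8, were all higher, with summed levels of 0.61 to 1.45 in the WT host and 1.05 to 16.9 in the Ext1S100a4Cre host, highest in tumours 2 and 3. Timp4, an inhibitor of metalloproteinases, followed those tumours: it measured -5.42, -5.34, -4.81 and -5.32 in the WT host and -5.46, -2.96, -2.45 and -5.39 in the other. Cidec, a lipid droplet protein of fat cells, measured 0.06 in WT host tumour 3 and -0.90 and 1.93 in Ext1S100a4Cre host tumours 2 and 3, and between -5.43 and -4.91 in the other 5. The part of muscle or fat in these tumours was not tested.

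Without the lists of lectins, Gimap, T-cell, matrix and muscle genes, 806 chromosome 6 genes had a median difference of 0.21, and 71.7% had a higher mean. Their relative level was -0.039, -0.061, -0.111 and -0.110 in the WT host and 0.143, 0.067, 0.059 and 0.053 in the other. The removed lists were known to hold lower genes, so a larger shift in the rest follows from their removal. The 86 genes in those lists had a median of -0.71, with 17.4% higher.

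The Hoxa cluster, in window 6, mostly followed the chromosome. Of its 11 Hoxa genes and the adjacent Evx1, 9 of 12 had a higher mean, with a median of 0.23, -0.02 in the unscaled matrix and 0.06 without WT host tumour 3. Hoxa7 measured 3.99, 3.92, 3.14 and 3.97 in the WT host and 4.08, 4.02, 3.98 and 4.14 in the Ext1S100a4Cre host, a narrow overlap. Hoxa13 and Evx1, which sit together at one end of the cluster, were lower by 0.62 (SE 0.32) and 1.41 (SE 0.66) on average, with overlap, and 0 of the 12 genes were apart.

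The list named for imprinting, the reading of a gene from 1 parental copy, gave values in both directions. Which copies were read was not measured here, and not every listed gene need be imprinted in these tumours. Of 12 listed 8 were measured and 2 had a higher mean. Mest, an embryonic gene read from the paternal copy, differed by -1.29 (SE 0.77). Its overlapping neighbour Copg2, a vesicle coat protein, measured 1.03, 1.10, 0.65 and 1.19 in the WT host and 2.20, 1.47, 1.43 and 1.28 in the other, higher without overlap. The median of the 8 was -0.35 and became 0.06 without Ext1S100a4Cre host tumours 1 and 4.

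The 10 genes lower without overlap were 1.12% of chromosome 6 genes, against 1.14% of all genes. They were scattered over 7 of the 15 windows, 4 of them in window 13. Igf2bp3, which encodes an RNA-binding protein of fetal tissue and tumours, measured 0.17, -0.64, -1.44 and -0.86 in the WT host and -2.16, -1.50, -1.45 and -1.91 in the Ext1S100a4Cre host, and the groups were barely apart. Hpgds, a synthase of prostaglandin D2 found in mast cells and some macrophages, measured -4.57, -3.90, -2.59 and -4.60 against -8.38, -5.50, -4.61 and -7.01. It was well above background on 2 of 4 arrays of the Ext1S100a4Cre host. With normexp the difference of Hpgds was -0.59 in place of -2.46. Il17re, a receptor subunit of the interleukin-17 family, differed by -0.53 (SE 0.15), and by -0.27 with normexp, with WT host tumour 4 at -2.29 and the other WT host tumours between -2.82 and -2.78. Ptprz1, a receptor phosphatase, and Gpr162, an orphan receptor, differed by -0.93 (SE 0.31) and -1.24 (SE 0.66). Dppa3, a gene of germ cells and early embryos, was well above background on 0 of the 4 Ext1S100a4Cre host arrays and was at least 1.60-fold lower, with measured means of -5.89 and -7.56. It too was included through the WT host alone, and with normexp the difference of Dppa3 was -0.10 in place of -1.68.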

How the data were processed

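Total RNA of 8 whole tumours, 4 per host, was measured on 1-colour arrays of 62976 spots. Per the file headers, the authors' scanner software, Agilent Feature Extraction, subtracted background and wrote the processed intensity and flags of each spot; the deposited series matrix holds the same intensities, unscaled. The software's version is 10.7.3.1 in the headers but 9.1 in the submitters' processing notes. Control spots and spots with outlier flags were left out, log2 was taken and each array's 75th percentile subtracted. Probes were assigned to chromosomes through the RefSeq transcript in the files and a RefSeq gene table of another build than the headers name, so no coordinates are given. A linear model was fitted over all 31282 genes and transcripts with limma 3.58.1 in R 4.3.3, with Benjamini-Hochberg adjustment, and the code was tested on simulated data.

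The p-values measure the spread between 4 tumours per host. The chromosome, the gene lists and the rule for named genes were chosen with earlier results of these data known. That rule names, among genes with ordinary symbols, Atp6v0e2, Klrh1 and Ndufa4, up to 12 genes without overlap in each direction by size of difference, the largest difference of each window, and in each list up to 4 members by size of difference and the brightest. Braf, Cd4, Cdkn1b, Clec1b, Clec2e, Creb3l2, Foxm1, Klrk1, Lrig1, Mcm2, Ret, Tgfa, Timp4 and Wnt5b fall outside it and were named after their values were seen, and the genes at window ends mark position only. Alternatives changed the background correction (normexp with offset 50), scaling, filter, probe choice, variance model, array weights, blocks (replicate number, slide row) and the tumours used. Their effect is given at the end. The number of arrays limits the precision.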

Additional observations from a re-analysis of the deposited data

Results flagged for a closer look

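Within 224 groups of 4 tumours looked at, 19 had a tumour set far from the other 3, by the ratio of its gap to the whole range. Chance alone gives about 1 in 20 such groups.

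For chromosome 6 as a whole, relative to other chromosomes, WT host tumour 4 lay at -0.112 and the other WT host tumours between -0.048 and -0.038. In the Ext1S100a4Cre host tumour 4 lay at 0.028 and the rest between 0.067 and 0.075. For the genes of window 8, WT host tumour 3 lay at 0.032 and the rest between -0.112 and -0.091.

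WT host tumour 3 stood apart for 4 genes: Hoxa7 at 3.14, Lrrc61 at -0.087, Gpr162 at -0.93 and the fat cell gene Cidec at 0.057. Gpr162 and Cidec were high there and Hoxa7 and Lrrc61 were low. In WT host tumour 4, Il17re measured -2.29 against -2.82 to -2.78.

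Ext1S100a4Cre host tumour 1 stood apart for 6 genes. It was low for the stromal genes Antxr1 at -3.99 and Cav2 at -2.08, the membrane repair gene Dysf at -2.34, the imprinted gene Mest at -3.79 and the germ cell gene Dppa3 at -8.62, where Dppa3 was not well above background. It was high for the histone deacetylase gene Hdac11, at -2.01 against -2.73 to -2.69.

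In the other tumours of that host, Lrguk measured -3.47 and Tuba8 -2.89 in tumour 2, and Calu 0.69 in tumour 3. Tumour 4 had Evx1 at -5.48, against -3.19 to -2.89, and Gpnmb, a glycoprotein of macrophages and pigment cells, at 0.17, against -1.49 to -1.31.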

How the results depend on the processing

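Chromosome 6 had the highest median of the 20 chromosomes under the 21 alternatives, and 0 of its genes passed the adjusted threshold in any of them. Its median difference turned to -0.072 in the unscaled series matrix, where other genes had -0.20, so that the distance between them was 0.13 there. In genes brighter than the median placed gene the median was 0.283 and the distance 0.1996, and with means in place of medians they were 0.047 and 0.068. The distance was 0.157 without the lectin, Gimap, T-cell, matrix and muscle lists and 0.099 without Ext1S100a4Cre host tumours 2 and 3.

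Genes higher without overlap numbered 43 with median scaling, where 1.85% of all genes were, and 11 in the unscaled matrix, where 0.29% were. They numbered 340 without Ext1S100a4Cre host tumours 2 and 3, where 25.8% of all genes were higher without overlap. With 1 tumour left out they numbered 108 to 167, where 4.19% to 8.27% of all genes were. Genes lower without overlap numbered 23 in the unscaled matrix, where 4.55% of all genes were. They numbered 30 without Ext1S100a4Cre host tumours 1 and 4, where 5.96% were, and 118 without tumours 2 and 3, where 11.5% were. With 1 tumour left out they numbered 10 to 44, where 1.8% to 3.8% of all genes were. Fewer tumours make groups without overlap more frequent by construction. At an unadjusted p under 0.05, the counts higher and lower were 71 and 22 with median scaling, 17 and 50 in the unscaled matrix, 126 and 24 with slide row as a block, 67 and 9 without tumours 1 and 4, and 211 and 75 without tumours 2 and 3. With 1 tumour left out they ran from 71 to 158 and from 6 to 37, the lowest being 71 without Ext1S100a4Cre host tumour 4, 76 without its tumour 1 and 82 without WT host tumour 3. Shares of all genes at this p are not given for the alternatives, so these counts cannot be set against them. Where the cause of a change is not stated, the cause was not tested.

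Tumours of the same number correlated by 0.49, -0.16, 0.59 and -0.25 in their deviations from the group means. Numbers 1 and 3 matched best with their own, and numbers 2 and 4 did not. With 4 numbers this cannot settle whether the numbers pair the tumours. With replicate number as a block the distance stayed at 0.129 and the counts without overlap at 97 and 10, while the unadjusted p counts were 139 and 57.

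Dim probes limit what can be read: 342 chromosome 6 genes were too dim to be included. The number of tumours limits single genes.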
